A study of Mus musculus with 6 samples.

Results

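Eph receptors and ephrins, the contact signalling genes described here, were represented by 10 members: the receptor genes Epha1, Epha2, Epha4, Ephb3, Ephb4 and Ephb6 and the ligand genes Efna1, Efna4, Efnb1 and Efnb2. They were taken by name from the 25112 named genes of the authors' deposited table, and each gene is represented by the RefSeq transcript with the highest base mean, the authors' mean normalized count over the libraries. The cells were primary epidermal keratinocytes of wild type C57BL/6 mice, isolated from pups 1 to 3 days old and grown at 0.05 mM calcium, a concentration that favours proliferation over differentiation. One group of 3 libraries had received a control small RNA (miR-Control) and the other group of 3 libraries pro-miR-148a, a precursor that raises the microRNA miR-148a; 200 nM was used and RNA was taken 48 h after transfection. The labels do not say whether libraries came from separate cultures or pups, and the titles of the miR-148a libraries numbered replicate 1 and replicate 3 share a further number, so the p-values may measure technical spread only. The comparison asked which transcripts differ when miR-148a is raised. Only pooled statistics are given in the tables analysed here: library depths and the spread of each level are unknown, and every error below is the authors' standard error (SE) of a log2 fold change (log2 change) or a 95% interval computed from it.

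Eph receptors are receptor tyrosine kinases that bind ephrins on the surface of a neighbouring cell. Ephrin-A ligands are held to the membrane by a lipid anchor and ephrin-B ligands cross it, and signals pass into the receptor-bearing cell (forward) and into the ephrin-bearing cell (reverse). The outcome is often a change in cell adhesion, in the actin cytoskeleton or in movement, and in the epidermis Epha2 and its ephrin-A ligands are known for roles in keratinocyte migration and differentiation.

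The mature microRNAs of the miR-148 family are shown because the match to their shared seed, bases 2 to 8 (capitals), was searched for in the members. The sequences are those of RefSeq (GRCm38.p6), written 5′ to 3′.
mmu-miR-148a-3p: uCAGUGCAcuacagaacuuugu
mmu-miR-148b-3p: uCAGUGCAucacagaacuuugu
mmu-miR-152-3p: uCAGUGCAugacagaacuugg

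The match in a transcript is TGCACTG (7mer-m8), TGCACTGA (8mer), GCACTGA (7mer-A1) or GCACTG (6mer), each read on the transcript strand and each gene sorted by its longest match. In the longest annotated 3' untranslated region (UTR, GENCODE M21) of the 10 members there was 1 8mer (Epha4), 1 7mer-m8 (Efnb2), a 6mer as the best match in 2 (Epha2 and Efna4) and no match in the other 6. Of all 9874 tested genes with such a UTR, 4.11% had an 8mer, 10.6% a 7mer-m8, 6.57% a 7mer-A1 and 15.4% a 6mer as the best match. The matches of the members, and that of Efna3, a family gene outside the 10 that passed the test, are printed below with the match in capitals and up to 11 bases on each side. Every one lies in the 3' UTR. Coordinates are GRCm38 on the minus strand, or on the plus strand for Epha2, and are those of the printed capitals.
Epha4 8mer, chr1:77369431-77369438, bases 1057 to 1064 of a UTR of 3310: ctgttctcagcTGCACTGAggaatgtgctg
Epha4 6mer, chr1:77373280-77373285, bases 448 to 453: tgtgcccaggaGCACTGttaaaggactc
Efnb2 7mer-m8, chr8:8617739-8617745, bases 2843 to 2849 of 3154: gtcatccccttTGCACTGtaatgaggaaa
Efna3 7mer-m8, chr3:89315328-89315334, bases 103 to 109 of 1538: ggagcggggtcTGCACTGtacatctctct
Epha2 6mer, chr4:141328905-141328910, bases 387 to 392 of 866: atatgactaggGCACTGtacgccccgcc
Efna4 6mer, chr3:89333707-89333712, bases 578 to 583 of 900: ctgtaattccaGCACTGggagggtgagg
A match is a description of these letters and does not show that the site is used.

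The direction of every value rests on how the deposited sign is read, since the authors' deposited table does not state which group is on top of the ratio. As deposited, genes with an 8mer had a median log2 change of 0.11 and genes with no match one of -0.01. MicroRNAs lower the transcripts they pair with, so the values are read here as control over miR-148a and their sign is turned: a positive value below is higher with miR-148a. All directions would turn together with that reading, and the lower level of genes with matches is no independent result. After turning, 29.3% of the 406 genes with an 8mer were called lower and 11.6% higher, against 16.1% and 19.0% of the 6255 genes with no match.

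The 10 members split in direction: Epha2 and Efnb1 fell, Efna4 rose, and 4 others did not pass the test at an adjusted p of 0.05. The other 3 members (Ephb4, Ephb6 and Efnb2) had too few counts for an adjusted p. By the authors' deposited table the called genes were thus 3 of 7 tested members, beside 33.5% of all 11038 tested genes (16.7% higher and 16.8% lower). The median log2 change of the 7 tested members was 0.00, and that of all tested genes was -0.01. With so few members, no difference from the share in the whole table can be read from this count.

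**Figure D1:**
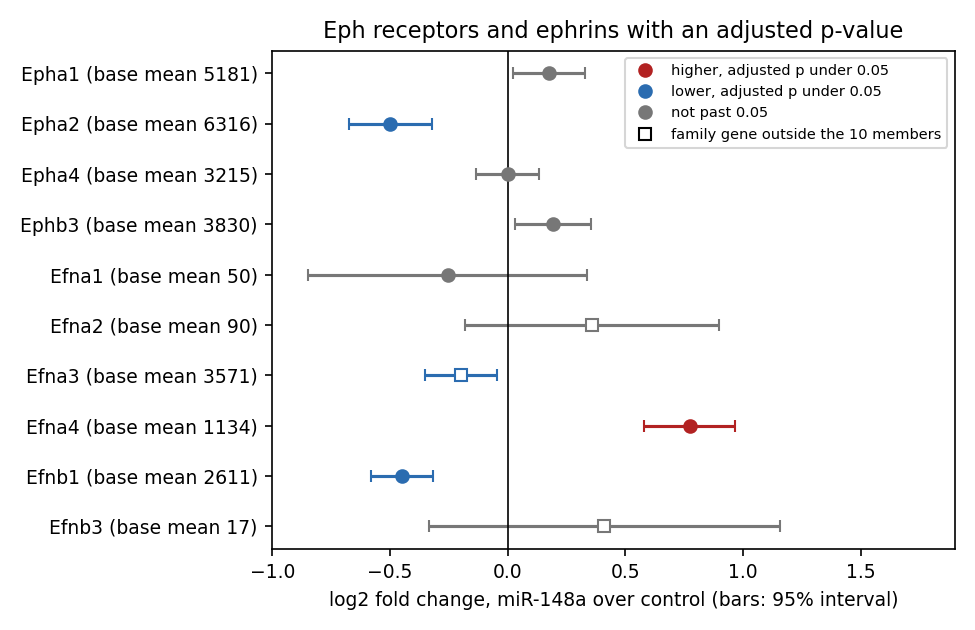
Log2 fold changes (x axis, miR-148a over control) of the 10 Eph and ephrin genes with an adjusted p-value, with 95% intervals; circles are members and open squares are family genes outside the 10 members. Efna4 lies to the right at 0.77, Epha2 and Efnb1 to the left at -0.50 and -0.45, and Epha4 at 0.00.

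Among the ephrin-A receptors Epha2, the best studied Eph receptor of epithelia, was the most abundant member. Its base mean was 6316 per the authors' deposited table (NM_010139), and it fell 1.41-fold with miR-148a (log2 change -0.50, SE 0.09, adjusted p = 3.6e-07). The 95% interval of the change runs from -37.4% to -19.9%. A group level can be worked out from the base mean and the fold change when the 2 groups weigh equally: for Epha2 these implied levels were 7397 normalized counts in control and 5236 with miR-148a. Only 16.5% of the 1318 tested genes whose base mean lay within 2 times of that of Epha2 had a larger change in either direction.

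Epha1, a receptor of epithelia, had a base mean of 5181 (NM_023580) and a log2 change of 0.18 (SE 0.08) per the authors' deposited table (adjusted p = 0.0697). Its interval, from 1.66% to 25.7% higher, lies above 0, but the change did not pass after adjustment over all transcripts. Epha1 was called higher when only transcripts with a base mean of at least 100 entered the adjustment (adjusted p = 0.0457) and when fold changes were centred on the median gene (adjusted p = 0.0478).

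Epha4, which binds ligands of both ephrin classes, carries the 8mer printed above and a 6mer, and its change was close to 0. Its log2 change was 0.00 (-0.00038, SE 0.07) per the authors' deposited table, with an adjusted p of 0.998 (NM_007936, base mean 3215). The implied levels were 3215 normalized counts in control and 3214 with miR-148a, and the interval runs from -8.98% to 9.81%. A fall larger than that lower bound therefore lies outside the interval. Among 2019 tested genes of similar base mean, 99.9% had a larger change. Of the 93 other genes with an 8mer and a base mean within 2 times of that of Epha4, 36 fell and 18 rose, with a median log2 change of -0.11, and 66.7% lay below Epha4. The sign of a value this close to 0 turned when fold changes were centred on the median gene (0.01, adjusted p = 0.931).

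Of the ephrin-B receptors, Ephb3 was the only tested gene. Ephb3 had a base mean of 3830 (NM_010143) and a log2 change of 0.19 (SE 0.08) per the authors' deposited table (adjusted p = 0.0609), with an interval from 2.11% to 27.9% higher. It too was called higher with a base mean of at least 100 (adjusted p = 0.0396) and after centring (adjusted p = 0.0422). Ephb4, the receptor known for its pairing with Efnb2 in veins and arteries, had 2 transcripts per the authors' deposited table, at base means of 0 and 0.688. Ephb6, a receptor whose kinase domain is not active, had both of its transcripts listed at 0.

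Among the ephrin-A ligands Efna4 rose 1.71-fold, the largest change of any member. By the authors' deposited table its log2 change was 0.77 (SE 0.10) (adjusted p = 1.36e-13, NM_007910, base mean 1134), with an interval from 49.3% to 95.5% higher. The implied levels rose from 837 to 1430 normalized counts. Of 2289 tested genes of similar base mean, 9.92% had a larger change. Its best match to the seed is a 6mer.

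Efna1, the ligand most often studied with Epha2, was weakly counted: the base mean was 50.3 (NM_010107), the log2 change -0.25 (SE 0.30) and the adjusted p 0.598 per the authors' deposited table. The interval, from -44.4% to 26.3%, leaves a change of the size seen for Epha2 or Efnb1 not detectable at this SE. Its other transcript (NM_001162425) had a base mean of 1.27 and the opposite sign (0.32, SE 0.24), with no adjusted p.

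Efna3, a family gene outside the 10 members, fell 1.15-fold per the authors' deposited table (log2 change -0.20, SE 0.08, adjusted p = 0.0385, NM_010108, base mean 3571). Its 7mer-m8, printed above, lies near the start of the UTR. The interval runs from -21.5% to -2.98% and does not overlap that of Efna4. After centring on the median gene Efna3 no longer passed (adjusted p = 0.0513). Efna2 (base mean 90.1) had a log2 change of 0.36 (SE 0.28) and an adjusted p of 0.366 per the authors' deposited table.

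Among the ephrin-B ligands Efnb1, a transmembrane ligand that also signals into its own cell, fell 1.37-fold. Its log2 change was -0.45 (SE 0.07) per the authors' deposited table (adjusted p = 3.51e-10, NM_010110, base mean 2611), and the interval runs from -33.2% to -19.8%. The implied levels were 3015 normalized counts in control and 2208 with miR-148a. The longest UTR of Efnb1, 1464 bases, held no match to the seed. Efnb3 (base mean 17.1) had a log2 change of 0.41 (SE 0.38) and an adjusted p of 0.475 per the authors' deposited table. Efnb2 carries a 7mer-m8, but its 2 transcripts had base means of 0 and 1.29 per the authors' deposited table; neither was tested, and no change can be read for it.

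**Figure D2:**
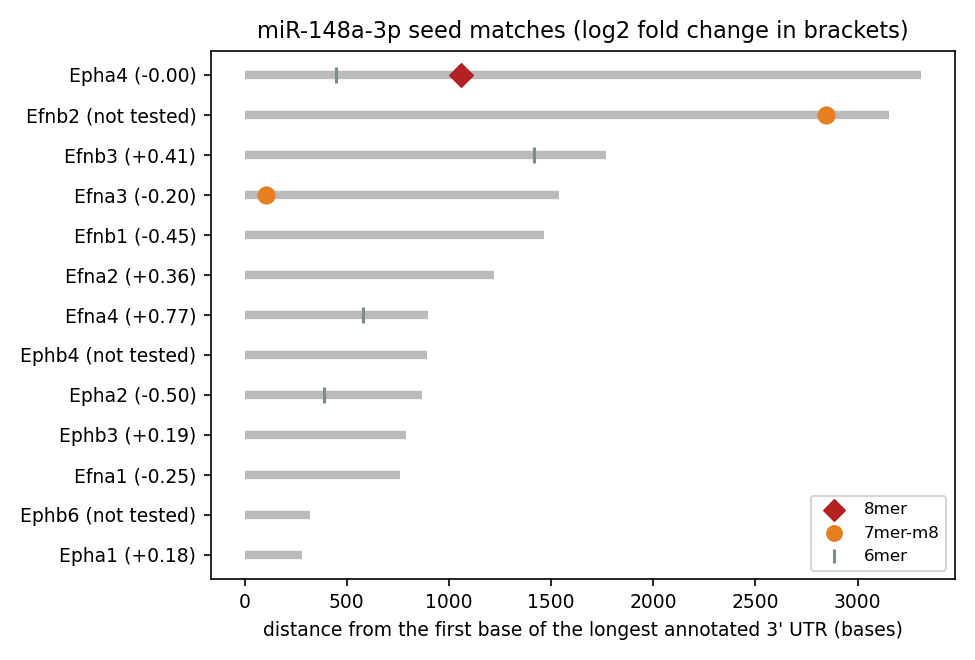
Positions of miR-148a-3p seed matches (symbols) along the longest annotated 3' UTR (grey bar, x axis in bases from its first base) of the 10 members and of the 3 other tested family genes, with the log2 change in brackets. The 8mer is in Epha4, at 0.00, while Efnb1, at -0.45, has no match and Epha2, at -0.50, has a 6mer only.

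The changes are set here beside the printed matches. Among the tested members only Epha4 had a match of 7 bases or more, so whether changes follow the strength of a match cannot be read from them and was not tested. Epha2 and Efnb1, the members that fell, had a 6mer and no match; Epha4 with the 8mer had a log2 change of 0.00; and Efna4, which rose, had a 6mer. Efna3 was the single called family gene with a match of 7 bases or more, and its fall was the smallest of the 3 per the authors' deposited table. In the tested family genes the UTR searched is that of the transcript whose value is given.

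The order of levels was compared per kilobase of transcript, since longer transcripts collect more counts. Epha2 was highest at 1614 normalized counts per kilobase, followed by Epha1 (1583), Efna3 (1511), Ephb3 (915), Efnb1 (801), Efna4 (709) and Epha4 (508), from the base means of the authors' deposited table and GENCODE lengths. Efna2 (42.3), Efna1 (34.0) and Efnb3 (5.36) were far lower. Efna1 has 2 transcript rows, and its level here is that of 1 of them and may not stand for the gene. For comparison, the median over 10400 tested genes with a length was 108 normalized counts per kilobase, and Epha2 lay above 88.8% of them. How far neighbours in this order differ beyond their spread cannot be given without values per library.

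The implied levels change this order. Epha2 was above Epha1 in control (1890 against 1486 normalized counts per kilobase) and below it with miR-148a (1338 against 1680). Of the summed level of the 3 tested ephrin-A receptors, Epha2 made up 48.7% in control and 37.9% with miR-148a. Efna4 made up 23.7% of the summed ephrin-A ligands in control and 37.6% with miR-148a, while Efna3 went from 73.0% to 59.1%. The ephrin-A sum holds only 1 of the 2 rows of Efna1 and leaves out Efna5, which was not tested. Efnb1 made up 99.5% of the summed ephrin-B ligands in control and 99.1% with miR-148a, and Efnb2 was not tested. With miR-148a the summed level of the ephrin-A ligands changed by 7.68% and that of the ephrin-B ligands, nearly all Efnb1, by -26.5%. The summed ephrin-A receptors changed by -9.22%, while Ephb3, the only tested ephrin-B receptor, changed by 14.3%. Pooled over both classes, where these opposite moves partly cancel, the 4 tested receptors changed by -4.99% and the 6 tested ligands by -2.43%. These sums were computed here from the authors' deposited table and have no error of their own.

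**Figure D3:**
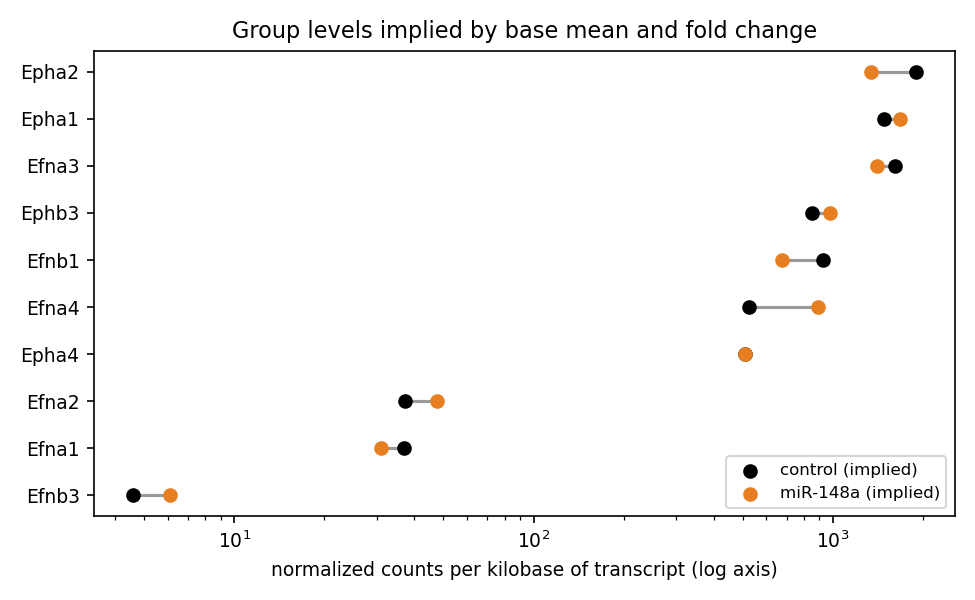
Group levels implied by the base mean and the fold change, in normalized counts per kilobase of transcript (log axis), for the 10 tested family genes; black points are control and orange points miR-148a. Epha2 and Epha1 exchange places, and Efna4 moves from 523 to 894.

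The plot of all tested genes sets the members beside genes of similar abundance. Of the tested genes of similar base mean, 9.92% had a larger change than Efna4, 16.5% than Epha2 and 99.9% than Epha4. For Efnb1, 20.8% of 2178 tested genes of similar base mean had a larger change. For Epha1 that share was 56.5% and for Ephb3 54.5%.

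**Figure D4:**
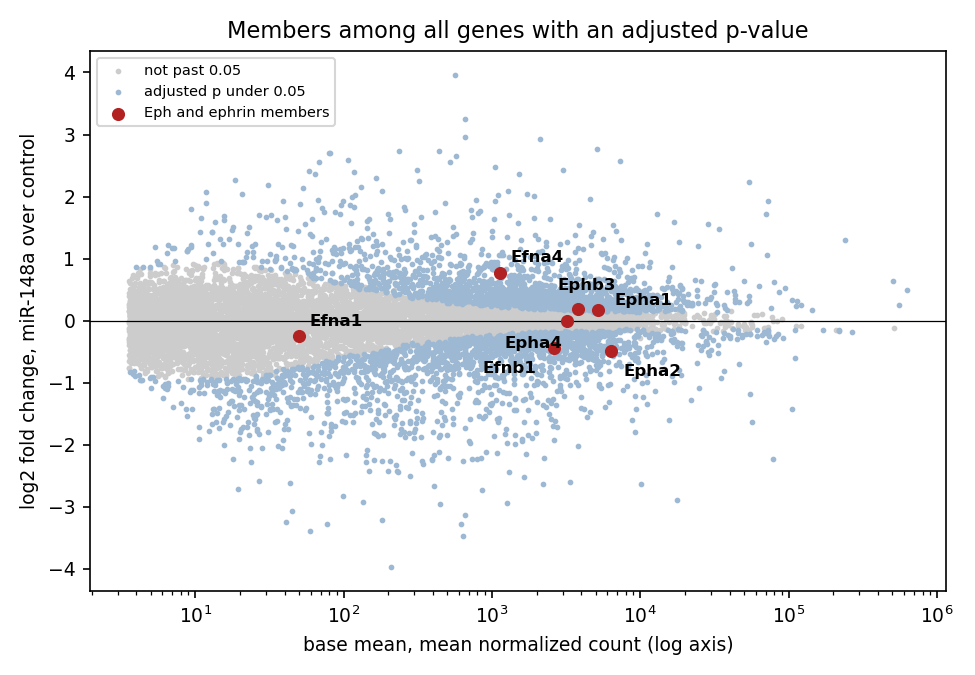
Log2 fold change (y axis, miR-148a over control) against base mean (log axis) for the 11038 tested genes, with the 7 tested members in red and genes past an adjusted p of 0.05 in blue. Efna4, at 0.77, is the highest member and Epha2, at -0.50, the lowest.

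Not all family genes could be measured. Of 22 Eph and ephrin genes in the table, 10 had an adjusted p, 6 were listed at 0 in all of their rows and the other 6 had base means of up to 1.29. The tested ones were 9 of the 12 family genes with 1 transcript row, but 1 of the 10 with 2 or more rows. Over all named genes, 50.5% of those with 1 row and 30.6% of those with 2 or more rows were tested. Ephb4, Ephb6, Efnb2 and Efna1 each have 2 rows, so a low value is no measurement of absence in the cells; the part of the row number in it was not tested. Besides Ephb6, the family genes listed at 0 were Epha3, Epha6, Epha10, Ephb1 and Ephb2, and those with base means under 1 included Epha5, Epha7, Epha8 and Efna5 per the authors' deposited table.

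Efna1, Efna3 and Efna4 follow each other directly on mouse chromosome 3, and they differed in direction: Efna4 rose, Efna3 fell and Efna1 did not pass the test. The gene beside Efna1, the sugar transporter gene Slc50a1, had a log2 change of -0.41 (SE 0.13) (adjusted p = 0.00707) per the authors' deposited table. On the far side of Efna4 the metalloprotease gene Adam15 had one of -0.44 (SE 0.39) at a base mean of 17.5 (adjusted p = 0.445). Neither of these neighbours was called higher with miR-148a.

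Genes that carry the Eph and ephrin signal inside the cell, or cut the proteins at the surface, were counted from a list of 60. Of the 42 tested, 8 rose, 5 fell and 29 did not pass the test per the authors' deposited table, so 31.0% were called beside 33.5% of all tested genes. Their median log2 change was -0.01. Both values were close to those of all tested genes. All 17 genes of the list with 1 row were tested, each at a base mean of at least 100, and 8 were called. Of the 43 with 2 or more rows, 25 were tested, 8 had a base mean of at least 100 and 5 were called. Genes that did not pass thus include weakly counted ones, for which not passing does not show an unchanged level. Of the 15 tested genes of the list with a 7mer or 8mer in the longest 3' UTR, 3 rose (Cfl1 and Kalrn with a 7mer-m8, Mmp14 with a 7mer-A1), 2 fell (Adam10 with an 8mer, Rock1 with a 7mer-m8) and the others did not pass. Of the 27 with a 6mer or no match, 5 rose and 3 fell. Of all tested genes with a 7mer or 8mer in that UTR, 14.8% rose and 22.5% fell. With a 6mer as the best match the shares were 17.7% and 16.3%, and with no match 19.0% and 16.1%. With so few genes of the list, no difference from these shares can be read.

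The proteases that cut ephrins and Eph receptors were called in 2 of 2 tested genes, in opposite directions, beside 33.5% of all tested genes and 57.7% and 58.1% of the genes with base means within 2 times of those of Adam10 and Mmp14. Adam10, the metalloprotease that binds Eph receptors and releases ephrins, fell 1.26-fold (log2 change -0.33, SE 0.07, adjusted p = 2.56e-05, base mean 6035) per the authors' deposited table. Mmp14, a membrane metalloprotease known to cut Epha2, rose 1.34-fold (0.43, SE 0.07, adjusted p = 2.18e-09) per the authors' deposited table. Adam17 had a base mean of 0.946 and was not tested.

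Among exchange factors that link Eph receptors to small GTPases, 2 of 8 rose and 1 fell, beside 16.7% and 16.8% of all tested genes. With so few genes per role, no difference from these shares can be read, here or for the other roles. Arhgef16, which binds Epha2, rose 1.22-fold (0.29, SE 0.10) and Kalrn 1.62-fold (0.70, SE 0.21), while Arhgef5 fell 1.28-fold (-0.36, SE 0.06, base mean 9192) per the authors' deposited table. Of 10 tested adaptors, Nck2 rose 1.15-fold and Cbl, a ubiquitin ligase that acts on activated receptor tyrosine kinases, fell 1.19-fold per the authors' deposited table. The adaptor gene Shc1 fell 1.82-fold at a base mean of 73.6 for the transcript listed.

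Kinases and phosphatases held 2 that rose among 7 tested, beside 16.7% of all tested genes. Pik3r1, the regulatory subunit of PI3-kinase, had the highest log2 change of the list per the authors' deposited table (1.21, SE 0.16, 2.32-fold, adjusted p = 2.53e-12), and the receptor phosphatase gene Ptprj rose 1.61-fold. Pik3r1, Ptprj, Kalrn, Cdc42 and Shc1 have 2 rows each, and the value given is that of the row with more counts. Of 11 tested GTPases and effectors, Cfl1, the actin-severing cofilin, rose 1.27-fold and the GTPase gene Cdc42 1.16-fold, while the kinase gene Rock1 fell 1.20-fold (-0.26, SE 0.09, adjusted p = 0.0106) per the authors' deposited table. None of the 4 tested partners of the ephrin-B tail (Pard6b, Rgs3, Dvl2 and Tjp1) passed by the authors' DESeq2 test, and none had an unadjusted p under 0.05. Rgs3 (base mean 9.04, SE 0.39) and Tjp1 (base mean 34.9, SE 0.32) were weakly counted, so changes of the size seen for Cfl1 or Rock1 were not detectable for them. Src, Ptpn11 and Stat3, each with 2 or more rows, were not tested.

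**Figure D5:**
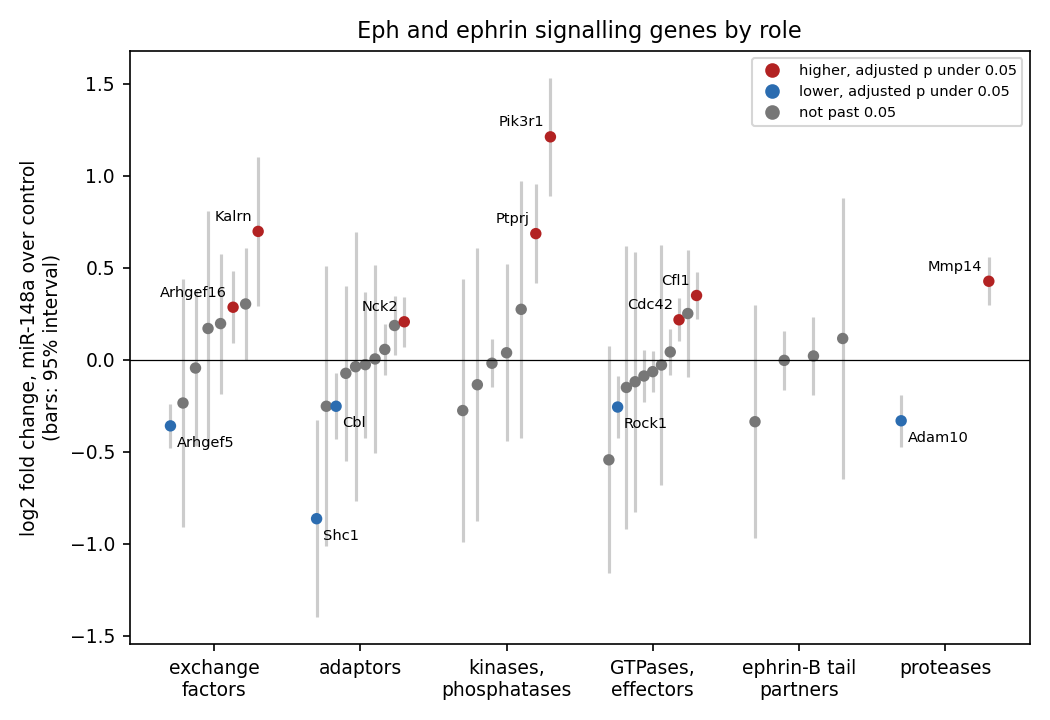
Log2 fold changes (y axis, with 95% intervals) of the 42 tested signalling genes by role, red for higher and blue for lower with miR-148a at an adjusted p under 0.05. Called genes lie on both sides of 0, from -0.86 (Shc1) to 1.21 (Pik3r1).

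The identity of the cells was checked by markers, and markers of other cell types moved in the same comparison. Krt5, the keratin of basal keratinocytes, was by far the most abundant marker at a base mean of 630448 and rose 1.41-fold, while Krt1 and Krt10, keratins of differentiating cells, fell 2.49-fold and 1.84-fold per the authors' deposited table. The marker counts stand beside 16.7% of all tested genes that rose and 16.8% that fell. Of the 7 tested keratinocyte markers 1 rose, 3 fell and 3 did not pass. The third to fall was Cdh1 (log2 change -0.21, SE 0.06, adjusted p = 0.00385), and Itga6 (-0.47, SE 0.37) and Itgb4 (-0.36, SE 0.35) were among those that did not pass. Krt14 had a base mean of 40.3 and Trp63 was listed at 0. These 2 genes have 3 and 8 rows. Itga6 and Itgb4 have 2 rows each and were more weakly counted than Krt14. Their base means lay not far above 3.56, the lowest of any tested transcript. For Itga6, Itgb4 and Krt14, not passing therefore does not show an unchanged level. Of 8 fibroblast markers all were tested, 5 fell and 3 did not pass, and their summed implied level was 26861 normalized counts in control and 19559 with miR-148a. Efnb1 and Epha2 fell in the same comparison, and the part of fibroblasts in this was not tested. In bulk RNA, fewer cells of a type and less RNA per cell cannot be told apart. Of 12 endothelial markers, which bear on Ephb4 and Efnb2, 6 were listed at 0 (Pecam1, Tek, Emcn, Cldn5, Egfl7 and Esam) and Cdh5 had a base mean of 0.332. Among those listed at 0 only Cldn5 has 1 row. The others have 2 to 4 rows, so their zeros are no measurement of absence. Of the 4 tested, Kdr and Flt1 rose and Vwf fell, with a summed level of 285 in control and 942 with miR-148a. Most of that rise lies in Kdr, whose implied level went from 115 to 762 (6.65-fold), while that of Vwf went from 132 to 75.5. Melanocyte markers had 1 of 5 tested genes lower (summed level 15808 and 14962) and immune markers 2 of 3 lower (548 and 411). The immune sum is mostly Cd68 (439 and 394), which did not pass. Lyz2 fell 6.18-fold and C1qa 6.59-fold, at base means of 43.8 and 19.4. Tyrp1 and Kit among the melanocyte markers and Ptprc, Cd207 and Adgre1 among the immune markers were listed at 0 per the authors' deposited table. All of these but Cd207 have 2 or 3 rows, so their zeros are no measurement of absence either.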

How the data were processed

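RNA sequencing was done on 6 libraries, 3 control and 3 miR-148a, grouped by their labels. The submitters' processing notes name DESeq2, without a version, and mouse build mm9. Aligner, counter and annotation were not given in the sources used here. The authors deposited, per the file headers, 42885 rows of RefSeq transcripts. Each row deposited by the authors has a base mean (a signal: normalized counts averaged over libraries), a log2 fold change, an SE, a Wald score, and p-values before and after adjustment. The Wald score equals the log2 fold change over its SE to within 1.69e-07, and a Benjamini-Hochberg adjustment over the 11757 transcripts that have an adjusted p gave the deposited adjusted p-values back to within a relative 0.00885. Transcripts without one had base means up to 3.56. The highest SE was 0.393, so SEs did not go on rising at low base means; folds of weakly counted transcripts may be understated if fold changes were shrunk, which was not tested. Without counts or values per library no test was run here on samples, and the authors' adjusted p stands for it.

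Transcripts were paired with symbols through RefSeq accessions (42739 of 42885 matched, GRCm38.p6) using Python 3.11.15 and pandas 2.3.3. The longest 3' UTR of at least 20 bases per gene was taken from GENCODE M21. Since mm9 is another build, coordinates are given only for sequences matched in GRCm38. Implied group levels are 2 times the base mean split by the fold change. Genes named are the 10 members, the other Eph and ephrin genes, Rock1 and, of the signalling list, the up to 6 highest and 6 lowest called genes at base means of 100 or more (only 4 were lower); Nck2, Cdc42, Shc1, Adam17, Pard6b, Rgs3, Dvl2, Tjp1, Src, Ptpn11, Stat3 and the neighbours of the Efna genes were chosen after their values were seen. A gene of the signalling list is not reported here and is left out of its counts. Members and lists were chosen with earlier results of these data known. Of the 951 categories of the authors' gene ontology table none names ephrins, and its values were not used. The recomputed Wald test was tested on simulated data. The alternatives tried were another row per gene, adjustment over genes, a minimum base mean of 100, centring on the median gene (also with adjustment over genes) and an adjusted p of 0.01.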

Additional observations from a re-analysis of the deposited data

How the results depend on the processing

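The calls of Epha2, Efnb1 and Efna4 kept their direction and stayed past the threshold under all 5 alternatives (the row with the lowest adjusted p, adjustment over genes, a base mean of at least 100, centring on the median gene, an adjusted p of 0.01). The number of members higher with miR-148a went from 1 to 3 at base means of 100 or more and to 3 after centring. In both cases the added genes were Epha1 and Ephb3. The centred p-values were also adjusted over genes. That adjustment without centring gave adjusted Wald p-values of 0.0664 (Epha1) and 0.0580 (Ephb3). Fewer tested transcripts, or the shift of the median by -0.01 together with adjustment over genes, moved values that lay just outside the threshold. Epha4 changed sign after centring (0.011). The number of signalling genes that were lower went from 5 to 3 at an adjusted p of 0.01. The difference of medians that sets the direction of reading, as deposited, was 0.12 for genes with an 8mer and 0.060 for 7mer-m8 and 0.055 for 7mer-A1 matches. No paired analysis was possible because the tables hold no value per library, and for the same reason no replicate could be left out. At the SE of Efna1 a change of the size seen for Epha2 or Efnb1 was not detectable, and Ephb4, Ephb6 and Efnb2 were not tested. Each of these low genes has 2 transcript rows. Whether depth or the number of rows sets their low base means was not tested.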
